A study of Homo sapiens with 6 samples.

Results

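The genes described here are IFIT2, IFIT3, MX1, GBP5 and IRF1, 5 genes that interferon is known to induce, chosen by their symbols in the deposited expression tables. They are 5 of 771 entries with a gene symbol among 1113 entries in all. Expression was measured by RNA-seq in ES2, an established human ovarian cancer cell line labelled as epithelial. The cells of 3 libraries had received a control antisense oligonucleotide (control ASO). Those of the other 3 had received one directed at RUNX1-IT1, a long non-coding RNA of the RUNX1 locus, and are called RUNX1-IT1 ASO libraries. An antisense oligonucleotide pairs with a target RNA and often leads to its degradation. All cells were grown in serum-containing medium. The labels name no interferon, no virus and no other agent, and they do not say whether the 3 libraries of a group came from separate cultures, so p-values measure only the spread between these libraries, which may be technical. The tables have no entry for RUNX1-IT1 itself, so the knockdown was not checked.

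Interferons are secreted proteins that bind cell-surface receptors and, through JAK kinases, activate STAT transcription factors. Type I interferon acts largely through a promoter motif called the interferon-stimulated response element (ISRE), while interferon-gamma acts largely through another, the gamma-activated site (GAS). IRF1 is itself a transcription factor that binds ISRE-like elements, and its own gene is also a known target of NF-kB. IFIT2 and IFIT3 are tetratricopeptide-repeat proteins of the antiviral response. MX1 is a dynamin-like GTPase that blocks virus replication, and GBP5 is a guanylate-binding GTPase of the cell-autonomous defence against pathogens.

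For all 5 genes the highest RUNX1-IT1 ASO library lay below the lowest control ASO library, as it did for 95.7% of all 771 named entries. The fold of the 5 genes ranged from 2.03 to 6.49. By the ratio of group means in CPM (read counts scaled to a common library size), IFIT2 was 6.49-fold lower, GBP5 4.50-fold, MX1 3.41-fold, IRF1 2.89-fold and IFIT3 2.03-fold. IFIT2 and IFIT3, neighbouring members of 1 gene family, were the 2 extremes of the 5. In bulk RNA a smaller share of cells expressing a gene and less RNA per cell cannot be told apart. Nearly every entry in these tables was lower under the RUNX1-IT1 ASO, so the direction of the 5 genes says little by itself, and the differences among them are described below.

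Since these genes are known for shared promoter elements, the stretches upstream of their transcription starts were read from RefSeq promoter windows on GRCh38.p14, which covered 3 of the 5 genes. IFIT2 and GBP5 had no entry. The searches used the 250 bases before each start, on both strands, with the ISRE core spelled GAAANNGAAA, the gamma-activated site spelled TTCNNNGAA, and the NF-kB consensus. The stretches of IFIT3 and IRF1 are shown because their matches differ in kind, and each is limited to bases outside annotated exons. Both read 5′ to 3′ along the gene's strand, and capitals mark the motif matches. The IFIT3 stretch is chr10:89327747-89327893 on the plus strand and the IRF1 stretch is chr5:132490799-132491023 on the minus strand.
IFIT3: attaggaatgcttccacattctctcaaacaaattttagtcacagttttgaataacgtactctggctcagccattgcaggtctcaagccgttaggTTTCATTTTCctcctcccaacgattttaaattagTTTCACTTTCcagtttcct
IRF1: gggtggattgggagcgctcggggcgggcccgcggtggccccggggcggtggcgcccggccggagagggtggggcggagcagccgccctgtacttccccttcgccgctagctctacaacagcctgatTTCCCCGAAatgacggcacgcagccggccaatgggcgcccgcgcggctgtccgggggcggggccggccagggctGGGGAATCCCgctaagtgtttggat

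The first IFIT3 start had 2 ISRE core matches, beginning 156 and 122 bases before it, and the second IFIT3 start had 2 more, beginning 94 and 51 bases before it. IRF1 had no ISRE core match in this window. It had 1 gamma-activated site match, beginning 124 bases before the start, and 1 NF-kB consensus match, beginning 50 bases before it. Among the 3 MX1 starts, the first had 1 NF-kB match, the second had no match, and the third had 1 match of each kind, where the ISRE core and gamma-activated site matches overlap each other. Most of the bases upstream of the MX1 starts lie in annotated exons and are not shown. Each MX1 match overlaps an annotated exon, as does the IFIT3 match beginning 51 bases before the second start. Of 34943 promoter windows of this length, 3.02% held an ISRE core match, 6.56% a gamma-activated site match and 9.95% an NF-kB match. A match describes the letters only, and binding was not measured.

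**Figure D1:**
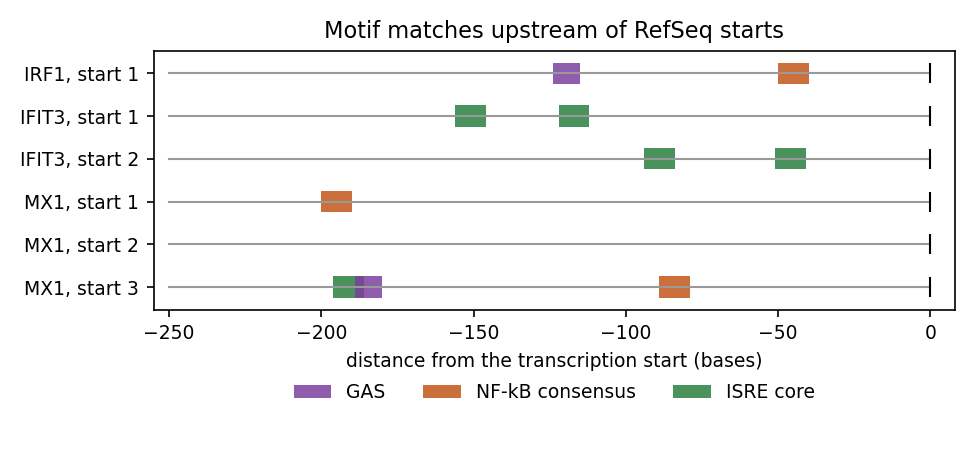
Motif matches in the 250 bases before each RefSeq start of IRF1, IFIT3 and MX1, with the distance from the start in bases on the x axis and 1 line per start. Both IFIT3 starts carry 2 ISRE core matches, whereas IRF1 carries 1 gamma-activated site match and 1 NF-kB match. All MX1 matches, and the IFIT3 match beginning 51 bases before the second start, overlap annotated exons.

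Of the IFIT family, IFIT2 stood at 24.9, 20.0 and 22.1 CPM in the control ASO libraries, replicates 1 to 3. It stood at 3.69, 3.12 and 3.52 CPM in the RUNX1-IT1 ASO libraries, also in the order of replicates 1 to 3, which holds for all triples of values here. The groups lay far apart, and the lowest control library was 5.43-fold above the highest RUNX1-IT1 ASO library. The means were 22.3 ± 2.42 and 3.44 ± 0.293 CPM (SD, n = 3 each). On the log2(CPM + 1) scale IFIT2 fell by 2.39 ± 0.11 (SE, limma, adjusted p = 8.15e-10). This was the 15th largest fall among the 489 genes tested, which are the genes with a symbol and a mean of at least 1 CPM. By the fold of means, 117 of the 769 named entries above 0 in the RUNX1-IT1 ASO group had a larger fold.

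IFIT3, whose product is known to form complexes with other IFIT proteins, stood at 10.4, 10.9 and 11.1 CPM in the control ASO libraries. In the RUNX1-IT1 ASO libraries it stood at 5.08, 4.95 and 5.92 CPM. The groups did not overlap, with the lowest control library 1.76-fold above the highest RUNX1-IT1 ASO library. The means were 10.8 ± 0.361 and 5.31 ± 0.526 CPM (SD, n = 3 each), and IFIT3 fell by 0.91 ± 0.11 on the log2(CPM + 1) scale (SE, limma, adjusted p = 2.92e-06). Its fold lies at the edge of the tables, where all 1113 entries but 1 differed 2-fold or more between group means in either direction, and 738 of 769 named entries had a larger fold. A rank this low therefore describes the listed entries only.

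The ratio of the 2 IFIT genes within a library does not depend on how libraries are scaled. IFIT2 CPM divided by IFIT3 CPM was 2.39, 1.84 and 1.99 in the control ASO libraries, and it dropped under 1 in each RUNX1-IT1 ASO library, to 0.726, 0.630 and 0.594. The log2 ratio, taken after adding 0.1 CPM to each gene, averaged 1.04 ± 0.19 under the control ASO and -0.61 ± 0.15 under the RUNX1-IT1 ASO (SD, n = 3 each), a difference of -1.65. The groups did not overlap (two-sided exact permutation test, p = 0.1, the smallest that 3 libraries against 3 allow). Per kilobase of annotated coding-transcript exons, IFIT2 was the higher of the pair in each control library, at 4.89 to 6.06 against 3.94 to 4.21 CPM per kilobase. In each RUNX1-IT1 ASO library IFIT2 was the lower, at 0.761 to 0.900 against 1.87 to 2.24 CPM per kilobase.

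In GENCODE release 29 on GRCh38, IFIT2 lies at chr10:89283694-89309276 and IFIT3 at chr10:89327894-89340971, both on the plus strand with 18618 bases between them. LIPA, the lysosomal acid lipase gene on the opposite strand, overlaps the span of both, and its exons overlap those of IFIT2. The strand setting of the counting was not given in the sources used here, so reads of IFIT2 and LIPA cannot be told apart where they overlap. AL353751.1, a transcript on the same strand as IFIT2, also overlaps its exons, and strand would not separate them there. LIPA and the other IFIT genes, IFIT1, IFIT1B and IFIT5, have no entry in these tables.

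MX1 stood at 2.49, 1.45 and 1.70 CPM under the control ASO and at 0.588, 0.538 and 0.527 CPM under the RUNX1-IT1 ASO. Control ASO replicate 1 was the highest of the 6 libraries for MX1, as it was for IFIT2, and the groups did not overlap. The means were 1.88 ± 0.545 and 0.551 ± 0.0325 CPM (SD, n = 3 each). MX1 fell by 0.88 ± 0.14 on the log2(CPM + 1) scale (SE, limma, adjusted p = 5.94e-05), where a gene as low as this shows less than its fold. MX1 passed the 1 CPM filter only through the control group, so a fall was built into its being tested. The spread of its control libraries, taken as a coefficient of variation, was 1.76 times the 16.4% that counting error alone gives at the implied reads. The same ratio was 2.27 for IFIT2, 0.90 for GBP5, 0.87 for IRF1 and 0.48 for IFIT3.

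The implied reads come from the spacing of low CPM values, which lay on even steps in each library. If 1 step is 1 read, MX1 rested on 111 reads in the 3 control ASO libraries together and on 30 in the 3 RUNX1-IT1 ASO libraries. The exact 95% Poisson intervals are 91.3 to 134 and 20.2 to 42.8 reads, and they cover counting error only. MX1 lies at chr21:41420304-41459214 on the plus strand, and an antisense transcript, AP001610.1, overlaps its exons.

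GBP5 was the least abundant of the 5 genes. It stood at 0.747, 0.695 and 1.04 CPM under the control ASO and at 0.214, 0.161 and 0.176 CPM under the RUNX1-IT1 ASO. The groups did not overlap, with means of 0.826 ± 0.184 and 0.184 ± 0.0273 CPM (SD, n = 3 each). The RUNX1-IT1 ASO values correspond to 4, 3 and 3 implied reads, at or just above 3 reads, the floor set here for a fold, which is no limit of the libraries. Summed over the group they make 10 reads (exact 95% Poisson interval 4.80 to 18.4, counting error only), against 49 in the control ASO libraries (36.3 to 64.8). The fold difference of GBP5 is therefore the least precise of the 5. Its mean of 0.505 CPM over the 6 libraries was under the 1 CPM filter, so it was not tested with the others. With no filter it fell by 0.62 ± 0.14 on the log2(CPM + 1) scale (SE, limma, adjusted p = 0.000702), where 97.3% of 771 genes were called lower and 2.46% higher. GBP5 lies at chr1:89258950-89272804 on the minus strand, and an antisense transcript, AC099063.1, overlaps its exons.

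IRF1, the transcription factor of the group, was the most abundant. It stood at 42.8, 42.0 and 44.5 CPM under the control ASO and at 15.5, 13.7 and 15.6 CPM under the RUNX1-IT1 ASO. Libraries of a group lay close together, with coefficients of variation of 3.01% and 7.10%, and the lowest control library was 2.69-fold above the highest RUNX1-IT1 ASO library. The means were 43.1 ± 1.30 and 14.9 ± 1.06 CPM (SD, n = 3 each), and IRF1 fell by 1.47 ± 0.09 on the log2(CPM + 1) scale (SE, limma, adjusted p = 7.17e-09). IRF1 lies at chr5:132481609-132490798 on the minus strand. C5orf56 and AC116366.3, on the opposite strand, overlap its exons, and neither has an entry in these tables.

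**Figure D2:**
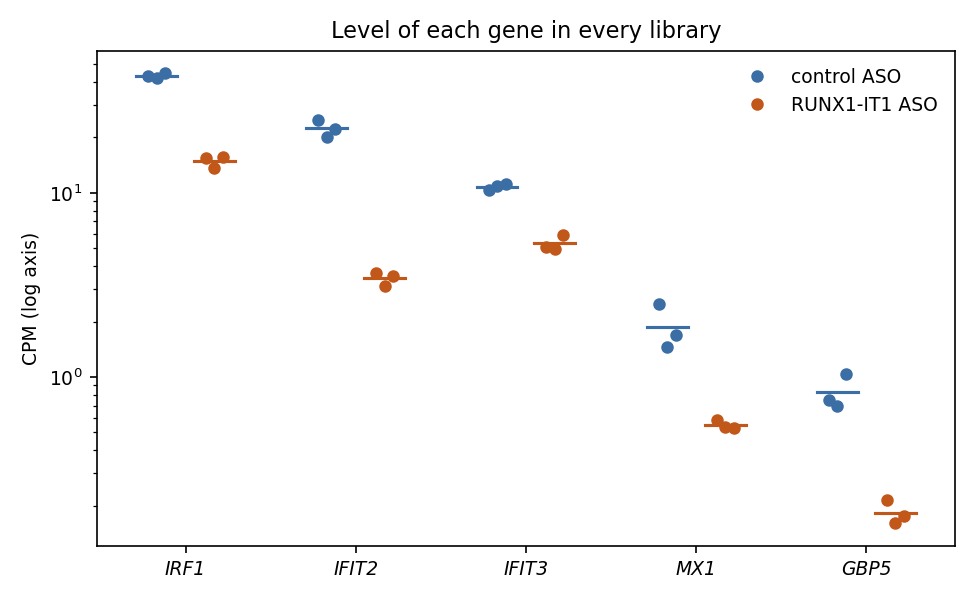
CPM of each gene in every library on a log axis, with 3 control ASO libraries and 3 RUNX1-IT1 ASO libraries as points and the group mean as a bar. For each gene the RUNX1-IT1 ASO libraries lie below the control ASO libraries without overlap, as they do for 95.7% of all named entries. IFIT2 lies above IFIT3 in the control ASO libraries and below it in the RUNX1-IT1 ASO libraries.

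Expressed per kilobase of annotated coding-transcript exons, the order of mean levels in control ASO libraries was IRF1 at 11.4 ± 0.342, IFIT2 at 5.45 ± 0.591, IFIT3 at 4.09 ± 0.137, MX1 at 0.465 ± 0.135 and GBP5 at 0.411 ± 0.0916 CPM per kilobase (SD, n = 3). MX1 and GBP5 did not differ beyond their spread there. In RUNX1-IT1 ASO libraries the order was IRF1 at 3.94 ± 0.279, IFIT3 at 2.01 ± 0.199, IFIT2 at 0.839 ± 0.0713, MX1 at 0.136 ± 0.00805 and GBP5 at 0.0913 ± 0.0136 CPM per kilobase (SD, n = 3).

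The 4 tested genes, IFIT2, IFIT3, IRF1 and, through its control level, MX1, were called lower at an adjusted p under 0.05. So were 97.5% of the 489 tested genes, with 2.04% called higher, and a share of 4 of 4 is not distinct from that background. Groups that did not overlap in this direction were likewise found for 97.1% of tested genes, and for 95.7% of all named entries. The median change of the 4 genes was -1.19, beside -1.11 over all tested genes. The tables seem to hold only entries that differed about 2-fold or more between these libraries, so the adjusted p-values are not independent evidence of a change.

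Ranked by their fall among the tested genes, the 4 were spread from near the top to below the median. IFIT2 was exceeded in its fall by 2.86% of tested genes and IRF1 by 23.5%, whereas IFIT3 was exceeded by 71.6% and MX1 by 75.5%. This scale favours abundant genes, and MX1 ranked below IRF1 and IFIT3 on it, although its fold of means was larger than that of either. By the fold of means, 465 of 769 named entries had a larger fold than IRF1 and 363 a larger fold than MX1. The 2.89-fold of IRF1 was under the median of 2.97 over all tested genes. After the libraries were rescaled to equal totals over the listed entries, which moved the median of all tested genes from -1.11 to -0.06, IFIT2 stood at -1.08 ± 0.11 (SE, limma, adjusted p = 2.89e-05). After this rescaling IRF1 at -0.03 and MX1 at -0.13 were not called, and IFIT3 stood at 0.42 ± 0.10 (SE, limma, adjusted p = 0.00832), which means that it fell less than the listed entries, nearly all of which differ 2-fold or more, did as a whole. In that scaling 24.1% of tested genes were called lower and 8.79% higher.

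**Figure D3:**
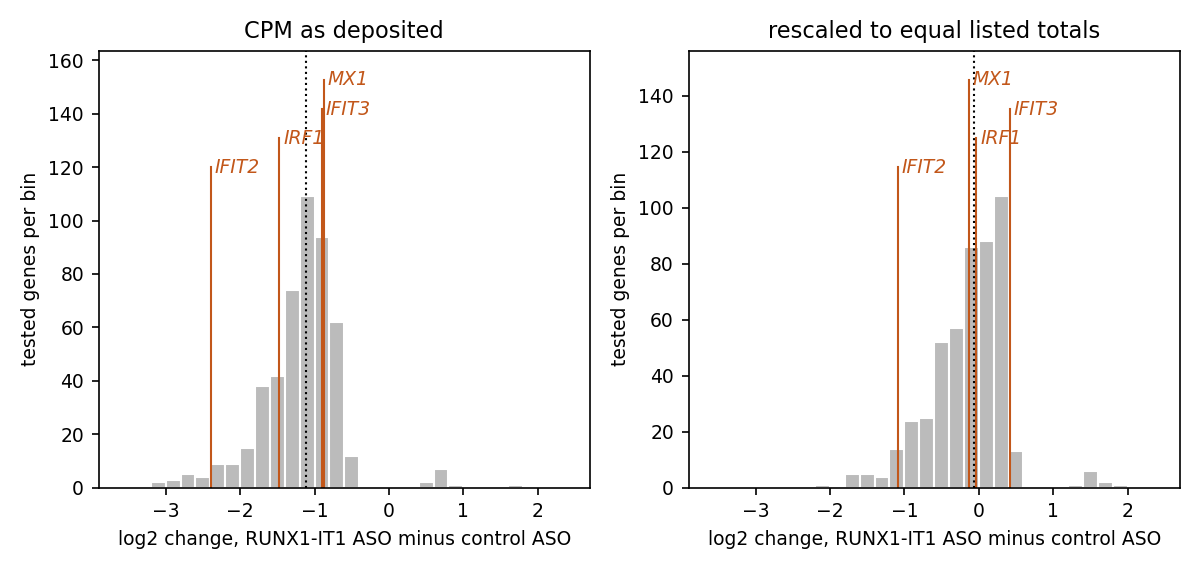
Histograms of the log2 change of 489 tested genes, as deposited on the left and after rescaling to equal listed totals on the right, with IFIT2, IRF1, IFIT3 and MX1 as lines and the median of all tested genes dotted. IFIT2 lies in the left tail of both panels, at -2.39 and -1.08, while IFIT3 moves from -0.91 to 0.42.

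Ratios were compared for all 10 pairs of the 5 genes, as log2 of CPM + 0.1 within each library. The groups did not overlap for 7 pairs, each at the smallest possible exact permutation p of 0.1 (Benjamini-Hochberg adjusted over 10 pairs, 0.143), so no pair could reach a threshold of 0.05. The 10 pairs share the same 5 genes, and pairs of other listed genes were not examined, so the count of 7 is not shown to be particular to these genes. The 4 pairs with IFIT2 were among the 7. The log2 ratio of IFIT2 to IFIT3 changed by -1.65, to MX1 by -1.09 and to GBP5 by -0.97, and that of IRF1 to IFIT2 rose by 1.14. IFIT3 lay on the other side of its partners. It gained 0.56 log2 units relative to MX1 and 0.68 relative to GBP5, and the ratio of IRF1 to IFIT3 decreased by 0.51.

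With 0.1 CPM added, the 3 pairs among IRF1, MX1 and GBP5 overlapped between the groups. The log2 ratio of IRF1 to MX1 was 4.48 ± 0.38 in control ASO and 4.53 ± 0.11 under the RUNX1-IT1 ASO (SD, n = 3 each). That of IRF1 to GBP5 was 5.56 ± 0.23 and 5.73 ± 0.10, and that of MX1 to GBP5 was 1.08 ± 0.49 and 1.20 ± 0.08. Whether these 3 genes fell by unlike factors was not settled, since the added value decides. With nothing added, the log2 ratio of IRF1 to GBP5 differed by 0.63 and its groups did not overlap (exact permutation p = 0.1). With 1 CPM added, IRF1 to MX1 differed by -0.60 and IRF1 to GBP5 by -0.85, each without overlap (exact permutation p = 0.1). For the 5 pairs that hold MX1 or GBP5 but not IFIT2, the direction of the difference between groups depends on the value added before the ratio. It was the same with nothing as with 0.1 CPM added, and turned with 1 CPM added. That amount is above the level of MX1 and GBP5 in every RUNX1-IT1 ASO library. With 1 CPM added, the difference between groups was -0.03 for IFIT3 to MX1 and -0.28 for IFIT3 to GBP5, beside 0.70 and 1.13 with nothing added. The differences of IFIT2 to MX1 and to GBP5 kept their sign with nothing added and with 1 CPM added.

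**Figure D4:**
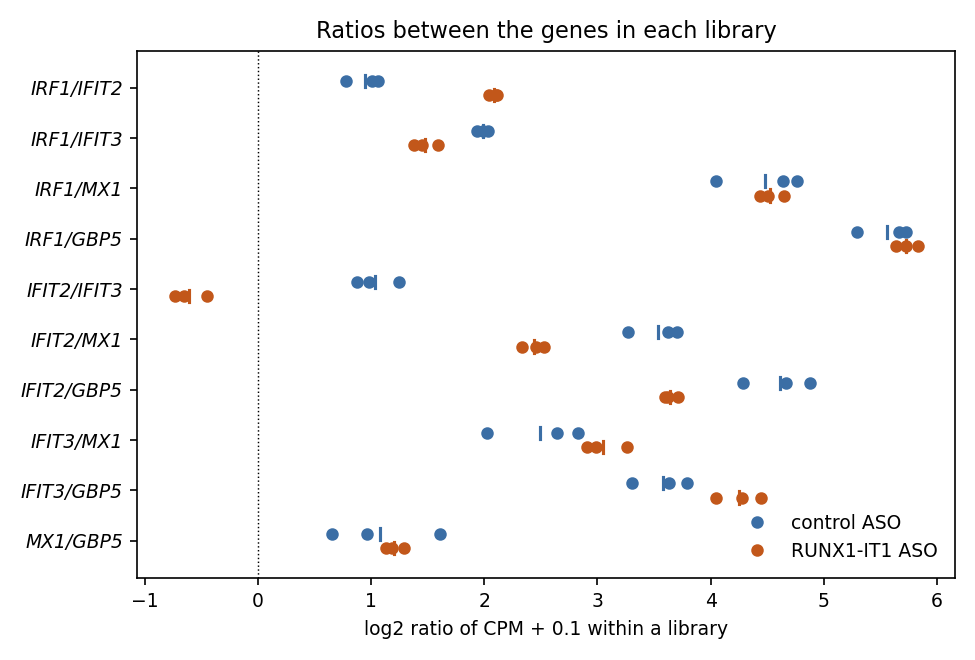
Log2 ratio of CPM + 0.1 for each of the 10 gene pairs, with 1 point per library and a bar at the group mean. The IFIT2/IFIT3 ratio is above 0 in the 3 control ASO libraries and below 0 in the 3 RUNX1-IT1 ASO libraries, and the 3 pairs among IRF1, MX1 and GBP5 overlap.

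Beyond these 5 genes, a list of 138 genes of the interferon system was read, and 9 of its genes, the 5 included, are listed in the tables. No ligand (0 of 21), no receptor, JAK kinase or STAT (0 of 12) and no interferon-gamma-induced chemokine or antigen presentation gene (0 of 23) is listed. Of 38 antiviral effector genes MX1 alone is listed, and of 5 IFIT genes IFIT2 and IFIT3. A gene absent from these tables is not analysed here, and nothing can be said of its change. Of the 9 listed genes 5 were tested, 2 of them (MX1 and PTPN6) only through their control level, and the 5 were called lower, beside 97.5% of tested genes.

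Each of the other 4 listed interferon-system genes was low in abundance. MB21D1, which encodes the DNA sensor cGAS, stood at 1.74, 1.04 and 1.93 CPM under the control ASO and at 0.321, 0.269 and 0.0590 CPM under the RUNX1-IT1 ASO. IRF5, another interferon regulatory factor, stood at 0.797, 0.926 and 1.41 CPM in control ASO and at 0.160, 0.0540 and 0.234 CPM in RUNX1-IT1 ASO libraries. These 2 genes did not overlap between groups, as was so for 95.7% of all 771 named entries. At 12 and 8 implied reads in the 3 RUNX1-IT1 ASO libraries together, the folds of MB21D1 and IRF5 are imprecise.

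GBP6, a guanylate-binding protein gene 91254 bases from GBP5, stood at 1.64, 1.62 and 1.74 CPM under the control ASO. In the RUNX1-IT1 ASO libraries it was at 0 in replicates 1 and 3 and at 0.161 CPM, 3 implied reads, in replicate 2. GBP5 and GBP6 were thus both lower without overlap, as were 95.7% of all named entries. The other 5 of the 7 guanylate-binding protein genes are not listed. PTPN6, a phosphatase that restrains JAK-STAT signalling, went from 1.53 ± 0.0779 to 0.608 ± 0.110 CPM (SD, n = 3 each). It fell by 0.66 ± 0.12 on the log2(CPM + 1) scale (SE, limma, adjusted p = 0.000148). Like MX1, it passed the 1 CPM filter only through the control group.

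Listed genes within 500 kb of the 5 genes were few. Around IRF1 they were CSF2, the gene of the granulocyte-macrophage growth factor GM-CSF, and GDF9, an oocyte growth factor gene. CSF2 went from 4.29 ± 0.342 to 1.24 ± 0.246 CPM and GDF9 from 2.20 ± 0.590 to 0.902 ± 0.188 CPM (SD, n = 3 each), at distances of 405439 and 370383 bases from IRF1. Around IFIT2 and IFIT3 no other gene was listed, and around MX1 none.

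The genes with the most similar profile were found by the root mean square difference of centred log2(CPM + 1) values over the 6 libraries. For IFIT2 the nearest was CLDN6, a claudin of tight junctions, at 0.0668 log2 units, against a median of 0.664 over all tested genes. For IFIT3 they were CD83, an immunoglobulin-superfamily surface protein, at 0.0531 and ZNF763, a zinc finger gene, at 0.0610, against a median of 0.221. For MX1 they were S100A3, a calcium-binding protein gene, at 0.0552 and LRP1B, a lipoprotein receptor-related gene, at 0.0736, against 0.264. For IRF1 they were the non-coding RNA LINC01024 at 0.0289 and ERO1B, an oxidoreductase of the endoplasmic reticulum, at 0.0520, against 0.264. These distances describe 6 libraries in 2 groups and are dominated by the size of the difference between the groups. Like MX1, the genes ZNF763, S100A3 and LRP1B passed the 1 CPM filter only through the control group.

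The listed entries together held 1.02 to 1.11% of all CPM in control ASO libraries and 0.363 to 0.389% in RUNX1-IT1 ASO libraries, and the steps put the totals at 17100000 to 21200000 reads per library. Of 10 epithelial and ovarian markers 2 are listed, PAX8 and ESR1, which together stood at 8.77 to 10.7 CPM in control ASO and 3.12 to 4.33 CPM in RUNX1-IT1 ASO libraries. The rest, EPCAM and the keratins among them, are not analysed here. Of 10 immune cell markers 1 is listed, ITGAM, at 1.62 to 1.84 CPM in control ASO and 0.0590 to 0.214 CPM in RUNX1-IT1 ASO libraries, so both kinds of listed marker lay lower, as nearly all entries did, and their part in the result was not tested. None of 5 fibroblast markers is listed.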

How the data were processed

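The deposited tables of 3 control ASO and 3 RUNX1-IT1 ASO libraries hold CPM values, a unit read from the values themselves. Per the submitters' processing notes, reads were handled with FastQC 0.11.9 and fastp 0.22.0 and the build was GRCh38. The sources used here do not give the aligner, counter, strand setting or gene filter. Values of up to 320 steps were all whole to within 0.1 step, but the lowest control values did not show single reads, so no count test was run.

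The log2(CPM + 1) values of the 489 named genes whose mean reached 1 CPM were tested in limma 3.58.1 (R 4.3.3), with group as the only term, a mean-variance trend and Benjamini-Hochberg adjustment. Differences are taken as the RUNX1-IT1 ASO group minus the control group, called at an adjusted p under 0.05. The code was tested on simulated data in which most genes did not change, unlike these tables, so that run checked the code only. Entries without a symbol (342) were left out. The genes, lists and tests were chosen with earlier results of these data known. The text names the 5 genes, the listed genes of the interferon list, listed neighbours within 500 kb, and the 2 genes nearest in profile to each tested gene, of which 1 is not reported here. Gene positions and exons are from GENCODE release 29, and promoter windows from RefSeq. Alternatives covered the pseudocount, filter, scaling, trend, replicate block, unnamed entries and each library left out.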

Additional observations from a re-analysis of the deposited data

How the results depend on the processing

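Rescaling the libraries to equal listed totals left 118 genes called lower and 43 higher, and 1 of the 4 tested genes, IFIT2, called lower. MX1 then stood at -0.13 (limma, adjusted p = 0.518), IRF1 at -0.031 (limma, adjusted p = 0.782) and IFIT3 at 0.42, with the sign turned. GBP5 stood at -0.20 with no test. Rescaling by construction centres tables in which nearly all genes fell. A pseudocount of 0.1 moved GBP5 to -1.69, with no test, and the median over all tested genes to -1.50. IFIT2 then stood at -2.66, MX1 at -1.57, IRF1 at -1.53 and IFIT3 at -1.01. Without the filter, 750 genes were called lower and 19 higher. At a mean of at least 5 CPM, which MX1 does not reach, 165 were lower and 0 higher. With the entries lacking a symbol included, 20 were higher. In these 3 settings the set of genes tested also differed, in number and in which genes it held. Non-overlapping pairs numbered 8, not 7, with nothing or with 1 CPM added before the ratio. With 1 CPM added, 5 pair differences turned sign, IRF1/MX1 to -0.60, IRF1/GBP5 to -0.85, IFIT3/MX1 to -0.030, IFIT3/GBP5 to -0.28 and MX1/GBP5 to -0.25. Each library was also left out in turn, with the same 489 genes tested. IFIT2, IFIT3, IRF1 and, through its control level, MX1 stayed called lower, as were 477 to 478 genes in all. IFIT2 then stood at -2.46 to -2.31 and IFIT3 at -0.97 to -0.86. The IRF1/MX1 difference turned to -0.17 without control ASO replicate 1 and to -0.014 without RUNX1-IT1 ASO replicate 3, and MX1/GBP5 turned to -0.086 without control ASO replicate 3. No other pair difference changed sign in these runs.

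Same-numbered libraries did not deviate together (correlations of -0.24, -0.10 and -0.02 over 489 genes), so the numbers were not taken as pairs. With a replicate block 478 of the 489 genes were called lower and 10 higher. IFIT2, IFIT3, IRF1 and, through its control level, MX1 were among those called lower.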
